A study of Mus musculus with 11 samples.

Results

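Interferon response genes were followed as a list of 39 mouse genes that cells switch on when they sense interferon, taken by symbol from the authors' expression table of all libraries. Of the 39, 38 were among the 24250 genes of that table, and Mx2 was not analysed here. RNA was sequenced from small intestine of mice in 3 groups: ND, read as normal diet (3 libraries), HFD, read as high-fat diet (4 libraries), and FSP, mice given a traditional Chinese herbal powder with Poria, known as Wu Ling San (4 libraries). The labels give no strain, genotype, age, sex, dose, duration, batch or stretch of small intestine for any group, and they do not state the diet of the FSP mice, though the series title speaks of obese mice. Nor do they tie libraries to animals, and p-values therefore measure only how far these samples spread, which may be technical. Values are FPKM, that is fragments per length of gene and per depth of library, so levels can be set side by side between genes. Differences are given on the scale of log2(FPKM + 1), where the change of a gene at a low level appears smaller than it is.

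Interferons are secreted proteins that warn cells of infection. Type I and type III interferons act through receptors that activate a complex holding STAT2 and IRF9, which binds a DNA motif called the interferon-stimulated response element (ISRE), whereas interferon gamma acts mainly at another motif, the gamma-activated site (GAS). The genes they induce detect viral nucleic acid, degrade or block the translation of RNA, tag proteins with ISG15, attack vacuoles that hold pathogens, and feed back on the pathway itself. In the gut, epithelial cells respond mostly to type III interferon, and a low level of such genes is known in mice without infection, with the microbiota as a known stimulus.

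Stretches of promoter that hold the ISRE letters are printed below, chosen to show them both in members that were lower in HFD and in members that did not pass the test. RefSeq promoters of the GRCm38.p6 build (the mouse genome called mm10), from 250 bases before to 50 bases after each start, were found for 31 of the 39 members. A match to the ISRE letters GAAANNGAAA or their reverse complement TTTCNNTTTC was in 18 of the 31 (58.1%), against 3.99% of 27025 genes with a promoter. A match to the GAS letters TTCNNNGAA, which read the same on both strands, was in 9 of the 31 (29.0%), against 9.55% of those genes. Each stretch is printed 5′ to 3′ on the strand of its gene, with the ISRE matches in capitals and 25 bases on each side, or fewer where the start of transcription comes first.
Isg15, chr4:156200850-156200921, minus strand, 3 overlapping matches: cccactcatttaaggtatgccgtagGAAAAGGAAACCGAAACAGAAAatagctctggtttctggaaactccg
Oas1a, chr5:120907526-120907570, minus strand, 2 overlapping matches: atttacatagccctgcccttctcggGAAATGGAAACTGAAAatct
Oas1g, chr5:120887614-120887656, minus strand, 2 overlapping matches: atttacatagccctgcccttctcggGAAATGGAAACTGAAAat
Ifit1, chr19:34640760-34640838, plus strand, 2 matches: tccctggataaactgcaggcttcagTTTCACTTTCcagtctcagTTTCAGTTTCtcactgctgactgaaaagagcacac
Rsad2, chr12:26456538-26456597, minus strand, 1 match: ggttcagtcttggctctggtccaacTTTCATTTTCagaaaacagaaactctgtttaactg
Irgm1, chr11:48871421-48871475, minus strand, 2 overlapping matches: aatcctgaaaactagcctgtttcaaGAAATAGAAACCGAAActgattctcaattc
Igtp, chr11:58199497-58199555, plus strand, 1 match: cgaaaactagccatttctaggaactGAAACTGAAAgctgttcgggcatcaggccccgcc
Gbp2, chr3:142620579-142620638, plus strand, 1 match: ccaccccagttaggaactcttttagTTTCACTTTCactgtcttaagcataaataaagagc

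All 8 stretches lie upstream of the annotated gene except that of Oas1a, of which 19 bases fall inside the annotated span of the gene. The stretch of Ifit1 also lies inside the annotated spans of Ifit1bl1 and Ifit1bl2, and the Ifit members lie close together on chromosome 19. The matches of Oas1a and Oas1g stand in nearly the same letters, and the genes are related neighbours on chromosome 5. A match describes letters in the window and is not a measured binding site.

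Estimated from the steps of low values in 658 single-exon genes, the libraries held 3.18e+07 to 3.84e+07 fragments, which puts 1 FPKM at about 31.8 fragments per kilobase in the shallowest. Pairs of libraries of a group correlated across genes with r from 0.956 to 0.994. The 13 mitochondrially encoded protein genes took 12.9% to 40.4% of summed FPKM, the highest in HFD 1. For the test, limma was fitted to the 10296 genes with a mean of at least 1 FPKM, with adjustment by Benjamini-Hochberg over all of them and a threshold of 0.05. Of the 38 members 36 entered it, and Oas2 and Ifit2 were under the filter. Ifi44 and Rsad2 averaged under 1 FPKM in HFD and FSP, so they entered through ND.

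The comparison of HFD with ND addresses the level of this programme on the high-fat diet. Of the 36 tested members, 25 were lower in HFD by limma, 1 was higher (Samhd1) and 10 did not pass. Over all tested genes 15.1% were lower and 5.36% higher. The median log2 change of the tested members was −1.17, against −0.21 over all tested genes. It was negative for 34 of the 36 members, against 7365 of the 10296 tested genes. Every HFD library lay below every ND library for 26 members, against 33.6% of all tested genes, and above for 1, against 9.28%. In bulk tissue, fewer cells of a type and less RNA per cell cannot be told apart.

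**Figure D1:**
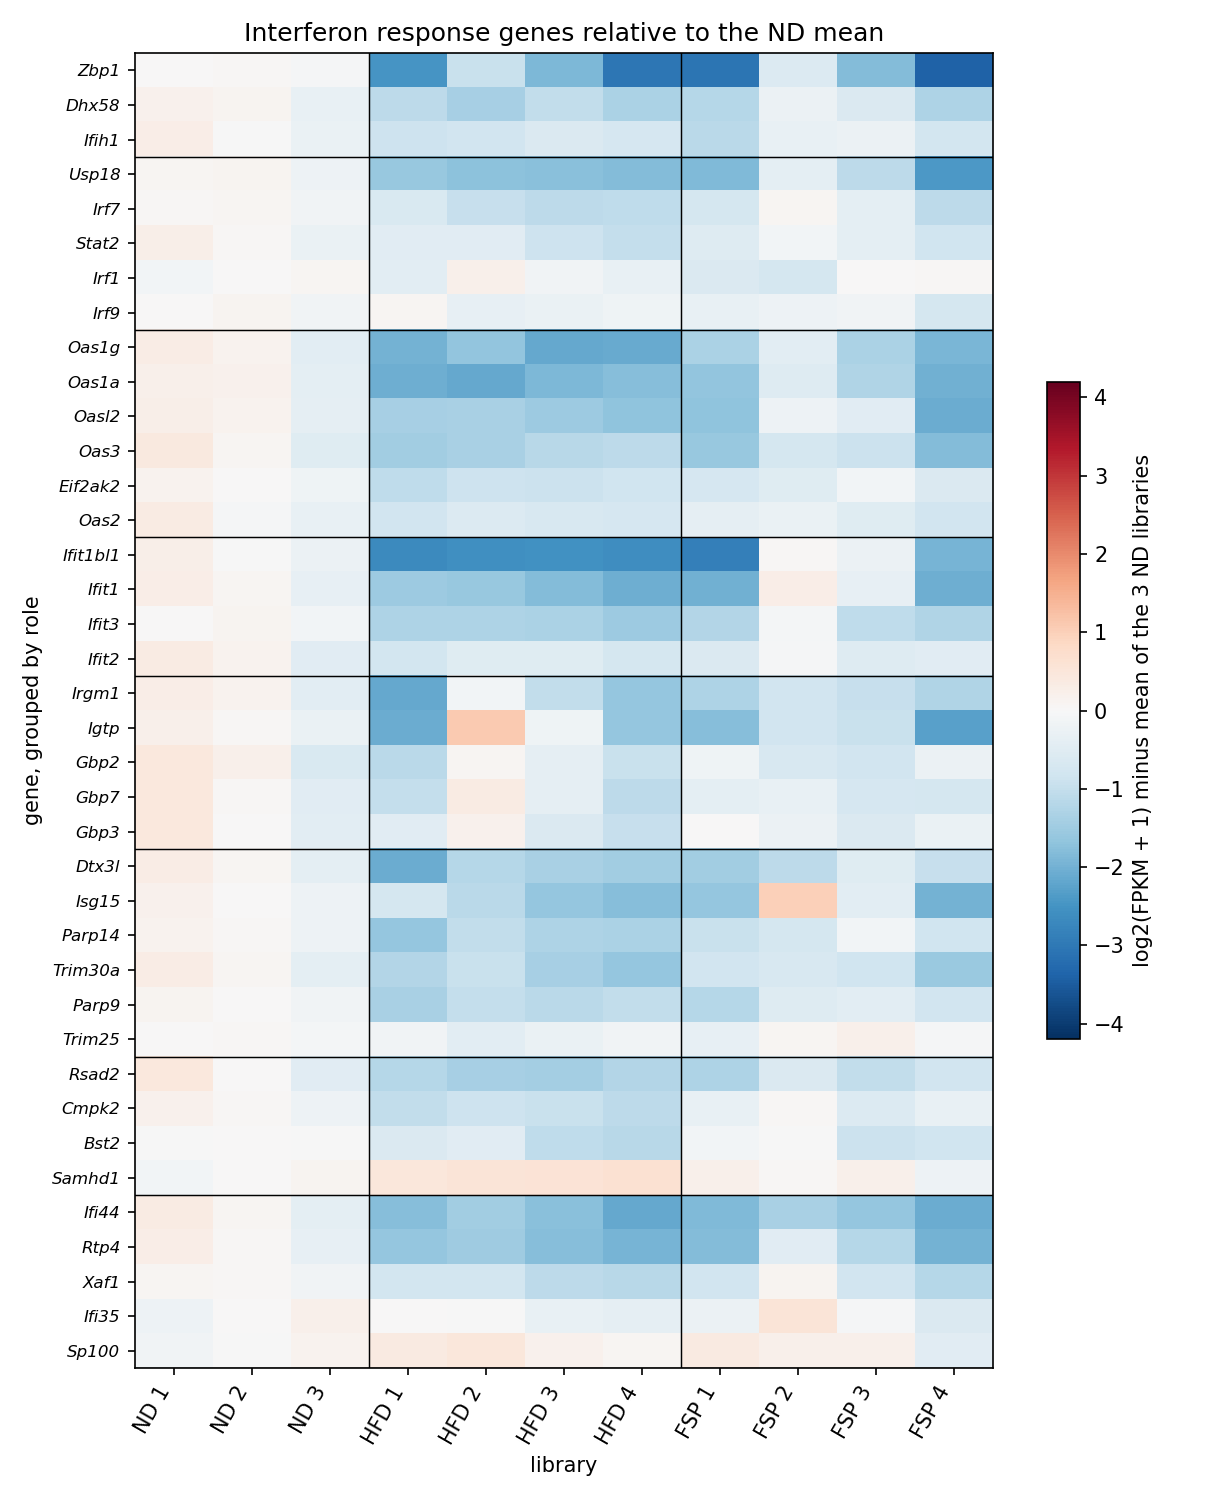
Difference of log2(FPKM + 1) from the mean of the 3 ND libraries (colour, blue lower and red higher) for the 38 interferon response genes in the table (rows, in 8 role groups divided by lines) in the 11 libraries (columns, ND, HFD and FSP). The 4 HFD columns are blue in most rows, Samhd1 is red there, and among FSP columns FSP 2 and FSP 3 are paler than FSP 1 and FSP 4.

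The counts moved with the scaling. Median-ratio scaling, which brings the median of all genes to 0, left 16 members lower and 1 higher, with 7.76% of all genes lower and 8.73% higher. Quantile normalization gave 18 lower and 1 higher, with 11.5% of all genes lower and 10.9% higher. The members' median log2 change was −0.93 and −0.98 in these fits. Without ND 1, 15 members were lower and 0 higher by limma, with 5.95% of all genes lower and 2.56% higher. Without ND 2, 16 members and 5.44% of all genes were lower. Calls over all genes thus fell too, from 15.1% lower in the main fit. A set of 15 calls held under all 7 processing alternatives and without each single library: Ifi44, Oas1a, Oas1g, Parp9, Parp14, Cmpk2, Eif2ak2, Dtx3l, Rsad2, Rtp4, Ifit3, Trim30a, Dhx58, Usp18 and Ifit1bl1. Of these, Ifi44 and Rsad2 passed the filter only through ND.

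Among the sensors of nucleic acid, all 3 members were lower. Dhx58, which encodes LGP2, a regulator of RNA sensing, stood at 6.12, 5.78 and 4.04 FPKM in ND 1 to 3 and at 1.91, 1.35, 2.08 and 1.49 FPKM in HFD 1 to 4. The lowest ND library lay above the highest HFD library, and the log2 change was −1.21 (SE 0.25, limma adjusted p = 0.00676). Ifih1, which encodes the double-stranded RNA sensor MDA5, had a log2 change of −0.76 (SE 0.21, limma adjusted p = 0.0258), which did not pass with median-ratio scaling. Zbp1, a sensor of Z-form nucleic acid that can trigger cell death, ranged from 26.3 to 28.4 FPKM in ND and was uneven in HFD, at 4.11, 13.9, 6.75 and 2.48. Its log2 change was −2.08 (SE 0.62, limma adjusted p = 0.036), and the call ended without each of 6 single libraries, among them ND 3 and HFD 1.

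Of 5 transcription factors and feedback genes, Usp18, Irf7 and Stat2 were lower and Irf1 and Irf9 did not pass. Usp18, the protease that removes ISG15 and dampens the type I receptor, stood at 9.63, 9.94 and 7.60 FPKM in ND and at 2.32, 2.02, 1.96 and 1.83 in HFD. The HFD libraries lay close together and far below ND, with a log2 change of −1.72 (SE 0.36, limma adjusted p = 0.00765). Irf7, the factor that amplifies interferon production and the member with the highest mean in ND, averaged 89.5 ± 7.70 FPKM there (SD, n = 3) and 46.3 ± 7.28 in HFD (SD, n = 4). Its log2 change of −0.94 and that of Stat2, −0.70, both ended as calls with median-ratio scaling and without ND 1 or ND 2. For Stat2 the call ended under 4 of 7 processing alternatives, and also without HFD 3 or HFD 4. Irf1, a factor of the interferon gamma response, ranged from 43.8 to 49.9 FPKM in ND and from 34.1 to 55.1 in HFD, and the groups overlapped.

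The oligoadenylate synthetases, which make the messenger that activates RNase L, and Eif2ak2, which encodes the translation-blocking kinase PKR, were all lower among the 5 tested. Oas1a stood at 28.9, 27.96 and 18.4 FPKM in ND and at 5.24, 4.81, 5.97 and 6.45 in HFD, so that the ND mean was 4.47 times the HFD mean. Oas1g stood at 15.8, 14.3 and 8.95 FPKM in ND and at 2.46, 3.35, 2.07 and 2.16 in HFD. ND 3 was the lowest ND library for both and still lay above every HFD library, with log2 changes of −1.96 (SE 0.29, limma adjusted p = 0.00153) and −1.98 (SE 0.30, limma adjusted p = 0.00167).
Stretches of 50 bases shared with Oas1g made up 57.6% of those of Oas1a, so how reads were divided between the pair is uncertain. Oas3, the largest synthetase, stood at 12.2, 9.54 and 6.005 FPKM in ND and at 2.63, 2.82, 3.46 and 3.60 in HFD. The groups did not overlap, and the call (log2 change −1.27, SE 0.28, limma adjusted p = 0.0095) ended without ND 1, at an adjusted p of 0.0553. Oasl2, a related gene, averaged 42.8 ± 9.71 FPKM in ND (SD, n = 3) and 14.4 ± 1.46 in HFD (SD, n = 4). Eif2ak2 stood at 12.5, 11.1 and 9.62 FPKM in ND and at 4.79, 5.50, 5.47 and 5.67 in HFD (log2 change −0.92, SE 0.15, limma adjusted p = 0.00228). The groups lay apart for both. The call of Oasl2 ended with median-ratio scaling, with no filter on low values, and without ND 1 or ND 2. Oas2, under the filter, ranged from 0.489 to 1.35 FPKM in ND and from 0.0616 to 0.233 in HFD (exact permutation p = 0.0286, two-sided, unadjusted, the smallest that 4 against 3 libraries can give).

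The IFIT genes encode proteins that bind foreign RNA and block its translation, and all 3 tested were lower. Ifit3 stood at 6.80, 7.22 and 6.01 FPKM in ND and at 2.10, 2.11, 2.05 and 1.66 in HFD. HFD 4 lay apart below the other HFD libraries, and the log2 change was −1.36 (SE 0.25, limma adjusted p = 0.00382). Shared stretches with Ifit3b made up 51.2% of Ifit3, so its reads are likewise uncertain. Ifit1bl1 had the most negative log2 change of the members, −2.59 (SE 0.55, limma adjusted p = 0.00841), from 45.6, 38.1 and 32.6 FPKM in ND to 5.20, 5.64, 5.76 and 5.50 in HFD. HFD averaged 5.53 ± 0.239 FPKM (SD, n = 4), and the ND mean was 7.02 times that of HFD. Ifit1 averaged 28.9 FPKM in ND and 7.81 in HFD, and its call (log2 change −1.75, SE 0.49, limma adjusted p = 0.0274) ended under 3 of 7 processing alternatives and without each of 4 libraries (ND 1, ND 2, HFD 3 and HFD 4). Ifit2, under the filter, averaged 1.38 and 0.503 FPKM (exact permutation p = 0.0286, unadjusted).

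The GTPases that attack pathogen-holding vacuoles counted 1 of 5 lower and 4 not past. Irgm1 stood at 27.4, 24.8 and 16.0 FPKM in ND and at 4.28, 20.6, 10.3 and 6.51 in HFD. HFD 2 lay above ND 3, the only overlap among the 25 lower members, and the call (log2 change −1.22, SE 0.38, limma adjusted p = 0.0434) ended without each of 8 single libraries and under 4 of 7 processing alternatives. Igtp stood at 20.6, 18.1 and 14.4 FPKM in ND and at 3.40, 38.3, 15.5 and 5.07 in HFD. HFD 2 was the highest of all 11 libraries for Igtp, whereas HFD 1 and HFD 4 were below every ND library. The guanylate-binding proteins Gbp2, Gbp3 and Gbp7 had log2 changes of −0.58, −0.47 and −0.54 and did not pass, with HFD 2 the highest HFD library for each. All 5 promoters of this group hold an ISRE match, as the printed stretches of Irgm1, Igtp and Gbp2 show.

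Isg15, the ubiquitin-like modifier, and 5 ligases and partner genes formed a group of 6. Every HFD library lay below every ND library for all 6, beside 33.6% of all tested genes. Of the 6, 4 were lower by limma, beside 15.1% of all tested genes. Parp9, which works with the ligase Dtx3l, stood at 43.4, 39.9 and 36.1 FPKM in ND and at 15.0, 19.4, 17.7 and 18.7 in HFD (log2 change −1.13, SE 0.17, limma adjusted p = 0.00173). Parp14, an ADP-ribosyltransferase of the same gene cluster on chromosome 16, stood at 18.8, 17.5 and 14.2 FPKM in ND and at 4.76, 7.56, 6.25 and 6.05 in HFD (log2 change −1.32, SE 0.20, limma adjusted p = 0.00173).
HFD 1 was the lowest library for both, and also for Dtx3l, whose log2 change was −1.52. The annotated spans of Dtx3l and Parp9 overlap, and the use of strand in counting is not given in the sources used here, so their reads may be shared. Trim30a, a restraint on innate signalling, had a log2 change of −1.29. Isg15 itself stood at 70.4, 63.0 and 53.6 FPKM in ND and at 36.7, 27.9, 19.4 and 17.3 in HFD. The groups did not overlap, but the log2 change of −1.32 (SE 0.57) did not pass (limma adjusted p = 0.114). Fitted on ND and HFD alone it passed (limma adjusted p = 0.0101, SE 0.25), as it did without FSP 2. Trim25, a ligase that activates RIG-I, ranged from 20.995 to 23.1 FPKM in ND and from 16.1 to 19.96 in HFD, with a log2 change of −0.26 that did not pass.

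Among the enzymes of the nucleotide pool and the block of virus exit, Cmpk2, Rsad2 and Bst2 were lower and Samhd1 was the only member higher. Cmpk2, a mitochondrial nucleotide kinase next to Rsad2 on chromosome 12, stood at 32.3, 29.0 and 24.2 FPKM in ND and at 13.4, 15.1, 14.2 and 12.7 in HFD (log2 change −0.98, SE 0.15, limma adjusted p = 0.00178). Rsad2, which encodes the antiviral enzyme viperin, went from 2.74 ± 1.17 (SD, n = 3) to 0.469 ± 0.119 FPKM (SD, n = 4). Bst2, which encodes tetherin, a tether of budding virus, ranged from 13.1 to 13.3 FPKM in ND and from 5.31 to 9.17 in HFD, a call that ended when any of 5 libraries, among them every ND library, was left out alone. Samhd1, which breaks down deoxynucleotides and so starves retroviruses, stood at 14.2, 15.7 and 16.7 FPKM in ND and at 21.9, 23.0, 23.4 and 24.9 in HFD. Every HFD library lay above every ND library, with a log2 change of 0.56 (SE 0.12, limma adjusted p = 0.00987). The call ended without ND 1, at an adjusted p of 0.0536. Its promoter holds no ISRE match, and neither do those of Cmpk2, Dtx3l, Ifi44, Irf7, Oasl2 and Xaf1 among the lower members. Of the lower members with a promoter, 13 of 19 hold a match, and of those not past, 5 of 10.

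Of the other induced genes, Ifi44, Rtp4 and Xaf1 were lower and Ifi35 and Sp100 did not pass. Ifi44, which entered the test only through ND, had the smallest p of all members. It stood at 5.78, 4.62 and 3.02 FPKM in ND and at 0.554, 0.932, 0.595 and 0.213 in HFD. The lowest ND library was above the highest HFD library, and the log2 change was −1.79 (SE 0.23, limma adjusted p = 0.000819). The ND mean was 7.80 times the HFD mean, a ratio that rests on HFD values under 1 FPKM. Rtp4, a chaperone of receptor transport with antiviral activity, averaged 15.6 ± 3.49 FPKM in ND (SD, n = 3) and 4.03 ± 0.680 in HFD (SD, n = 4), and Xaf1, a gene that favours cell death, 3.25 ± 0.336 and 1.20 ± 0.317. The call of Xaf1 ended under the same 3 alternatives and without the same 4 libraries as that of Ifit1. Ifi35 ranged from 70.2 to 94.2 FPKM in ND and from 62.6 to 83.3 in HFD, and the nuclear body gene Sp100 from 7.23 to 8.91 and from 8.51 to 11.5.

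**Figure D2:**
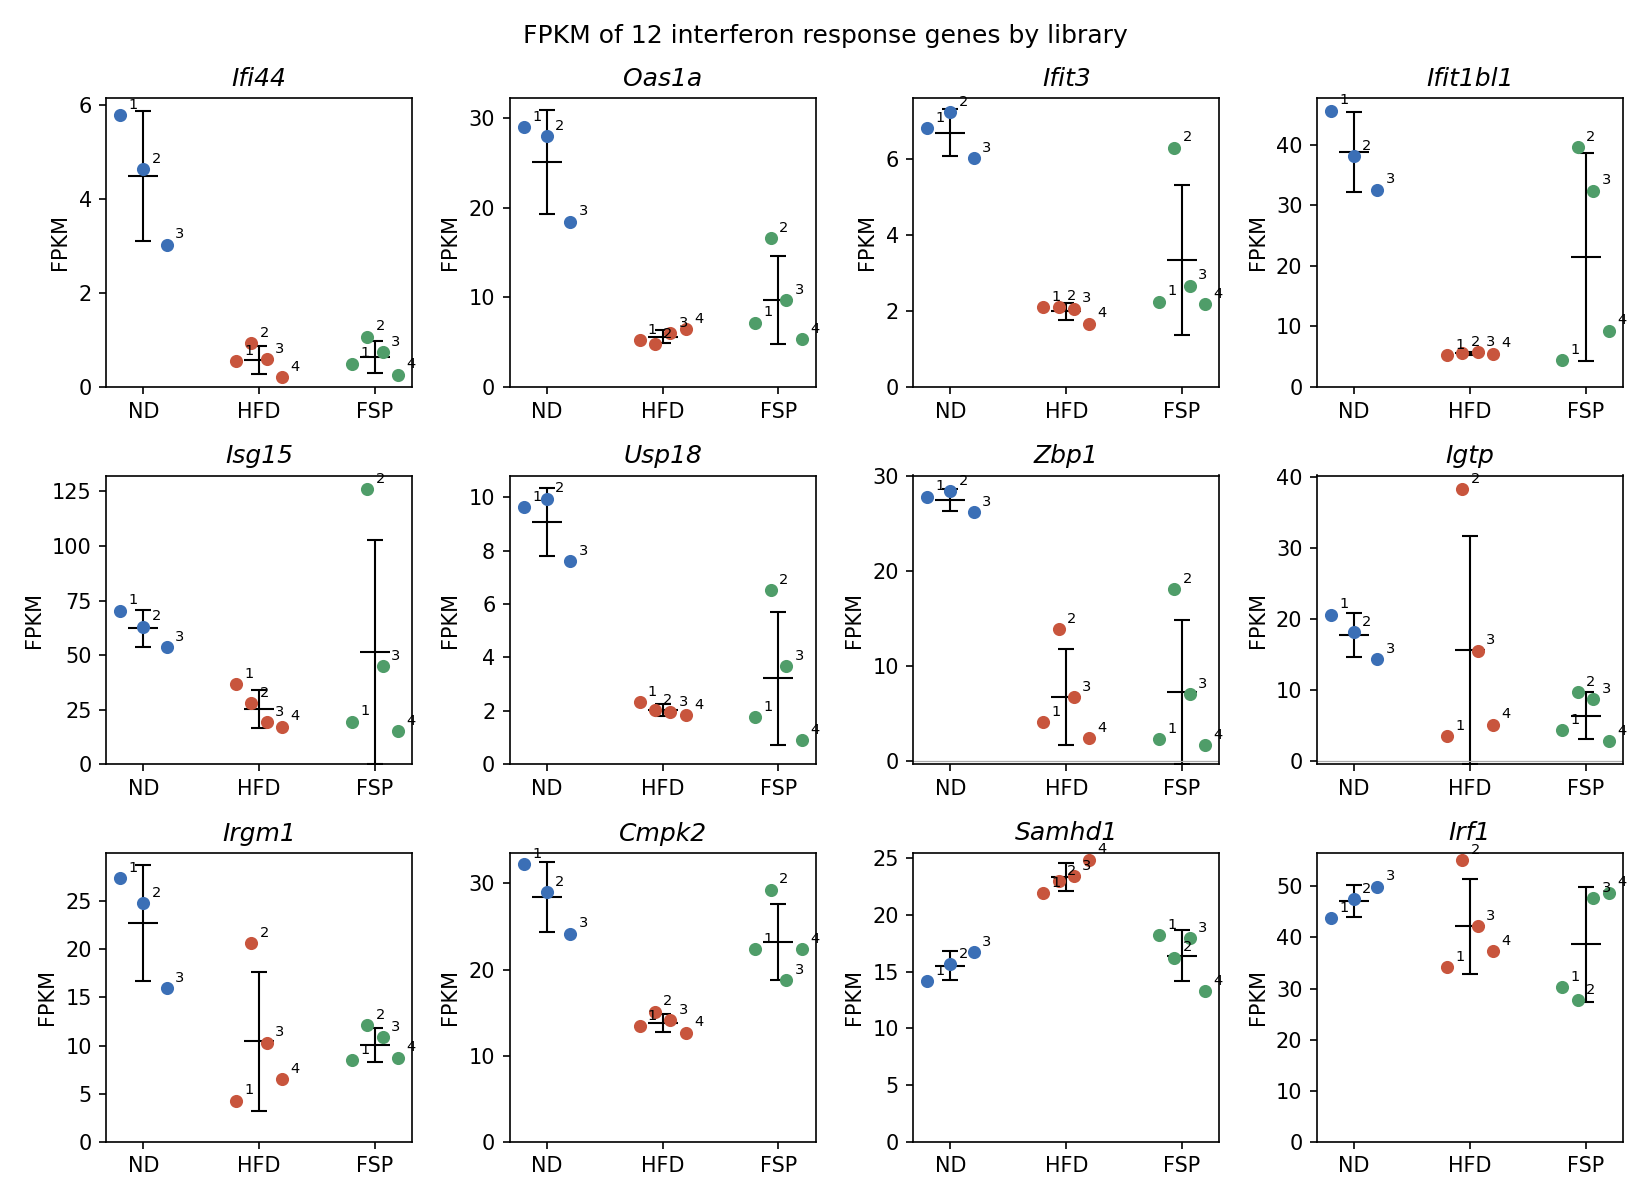
FPKM (vertical axes, linear) of 12 interferon response genes in each library, by group (ND blue, HFD red, FSP green). Points are libraries with their replicate number, and black bars are the mean ± SD. HFD points of Ifit1bl1, Oas1a and Usp18 lie close together below ND, HFD 2 stands high for Igtp and Irgm1, and FSP 2 stands high for Isg15, Ifit3 and Zbp1.

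The rest of the pathway was taken from lists of ligands, receptors, signal transduction, nucleic acid sensing, other effectors and antigen presentation. Interferon genes themselves were at or near 0: of 21 listed, 4 were in the table, and Ifng, the highest, ranged from 0 to 0.07 FPKM over the 11 libraries. Among 6 receptor chains, 3 were higher in HFD, 1 was lower and 2 did not pass. Ifnar2, a chain of the type I receptor, stood at 1.26, 1.68 and 2.06 FPKM in ND and at 4.95, 4.57, 4.01 and 4.76 in HFD (log2 change 1.07, SE 0.15, limma adjusted p = 0.00118). Il10rb and Ifnlr1, the chains of the type III receptor, had log2 changes of 0.78 and 0.47 (limma adjusted p = 0.00341 and 0.0207), the latter call ending without each of 5 single libraries, among them every ND library. Ifngr1, a chain of the interferon gamma receptor, was lower by a log2 change of −0.53 (limma adjusted p = 0.04), a call that ended without each of 6 single libraries and with median-ratio scaling. Ifnar1 and Ifngr2 had log2 changes of 0.01 and −0.22 and did not pass.

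Of 10 genes of signal transduction and its negative regulators, 4 were lower and 0 higher by limma. They included Stat3 (−0.88), a transcription factor of cytokine signalling, and the suppressors Socs3 (−1.57) and Socs1 (−0.91). The call of Socs1 ended when any 1 ND library was left out, and also with median-ratio scaling. Of 13 tested genes of nucleic acid sensing, 6 were lower and 0 higher, including the RNA editor Adar (−0.84), the kinase Ikbke (−0.94), the endosomal RNA receptor Tlr3 (−0.93) and Rigi, which encodes the RNA sensor RIG-I (−0.57, not past with median-ratio scaling).

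Among 45 tested other effectors, 19 were lower and 0 higher. They included the growth factor receptor gene Ogfr (−1.04), the galectin gene Lgals9 (−1.18), the ubiquitin ligase gene Rnf213 (−1.79) and Parp10 (−0.76), each held under all alternatives. Antigen presentation genes induced by interferon gamma were lower in 2 of 13, the peptide transporter Tap1 (−0.99) and its partner Tapbp (−0.49), both of which ended with median-ratio scaling. That count is near the background, since 15.1% of all tested genes were lower. The median log2 change was −0.55 for the other effectors and −0.41 for antigen presentation, beside −0.21 over all tested genes.

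Markers of other cells and of gut position were read in the same libraries. Of 10 genes of the distal small intestine 8 were lower in HFD, and of 9 tested proximal genes 7 were higher and 1 lower. Summed FPKM of the distal list was 2856 to 12848 in the ND libraries, 686 to 974 in HFD and 1362 to 4927 in FSP, with Fgf15 at 0 in at least 1 library. The proximal list summed to 1326 to 5909.5 in ND, 14430.0 to 19906 in HFD and 4266 to 11453 in FSP. These lists moved with the groups, and their part in the interferon result was not tested. Within ND, ND 3 was the lowest library for 32 of 36 members and also the lowest for the distal list, whose mean log2(FPKM + 1) was 8.05, 7.85 and 6.52 in ND 1 to 3. How often ND 3 was lowest over all tested genes was not counted. Its level over all genes was also the lowest in ND, with median-ratio factors of 1.157, 1.141 and 1.033 in ND 1 to 3.

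Immune cell lists were read alongside. Of 10 tested B and plasma cell genes 0 passed limma in HFD against ND (5 at an unadjusted p under 0.05, against 3876 of all 10296 tested genes). The list summed to 116 to 163 FPKM in ND, 202 to 351 in HFD and 186 to 873 in FSP, with Pax5 and Cr2 among the genes at 0 in at least 1 library. The B cell gene Cd79a stood at 0.752 to 1.47 FPKM in ND, at 99.3, 59.3, 22.8 and 1.31 in HFD 1 to 4, and at 95.3, 44.8, 0.733 and 4.07 in FSP 1 to 4. Xbp1 went the other way, averaging 88.2 FPKM in ND and 59.7 in HFD. Of 5 tested T cell and intraepithelial lymphocyte genes 0 passed (0 unadjusted), with sums of 19.7 to 27.2, 18.4 to 24.7 and 9.98 to 68.9 FPKM. Of 6 tested macrophage and dendritic cell genes 0 passed (0 unadjusted), with sums of 21.4 to 28.1, 20.003 to 87.7 and 12.7 to 151 FPKM. Plasmacytoid dendritic cells are the best-known source of type I interferon. Their list of 8 genes summed to 8.25 to 10.9 FPKM in ND, 20.96 to 56.7 in HFD and 8.47 to 64.2 in FSP, and of its 3 tested genes 0 passed in HFD against ND (1 unadjusted). Ly6d, which B cells also express, averaged 0.591 FPKM in ND and 17.5 in HFD, Spib 1.75 and 5.93, and Klk1 6.49 and 11.8, whereas the defining gene Siglech was at 0.0205 to 0.240 in every library. Tcf4 and Pacsin1 of this list had lower means in HFD (0.291 and 0.155 FPKM) than in ND (0.395 and 0.208). The part of these cells in the interferon result was not tested. Gzma, a granule protease and the highest gene of the T cell list, stood at 10.3 to 12.5 FPKM in ND and at 5.63 to 10.1 in HFD, and did not pass (limma adjusted p = 0.5).

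**Figure D3:**
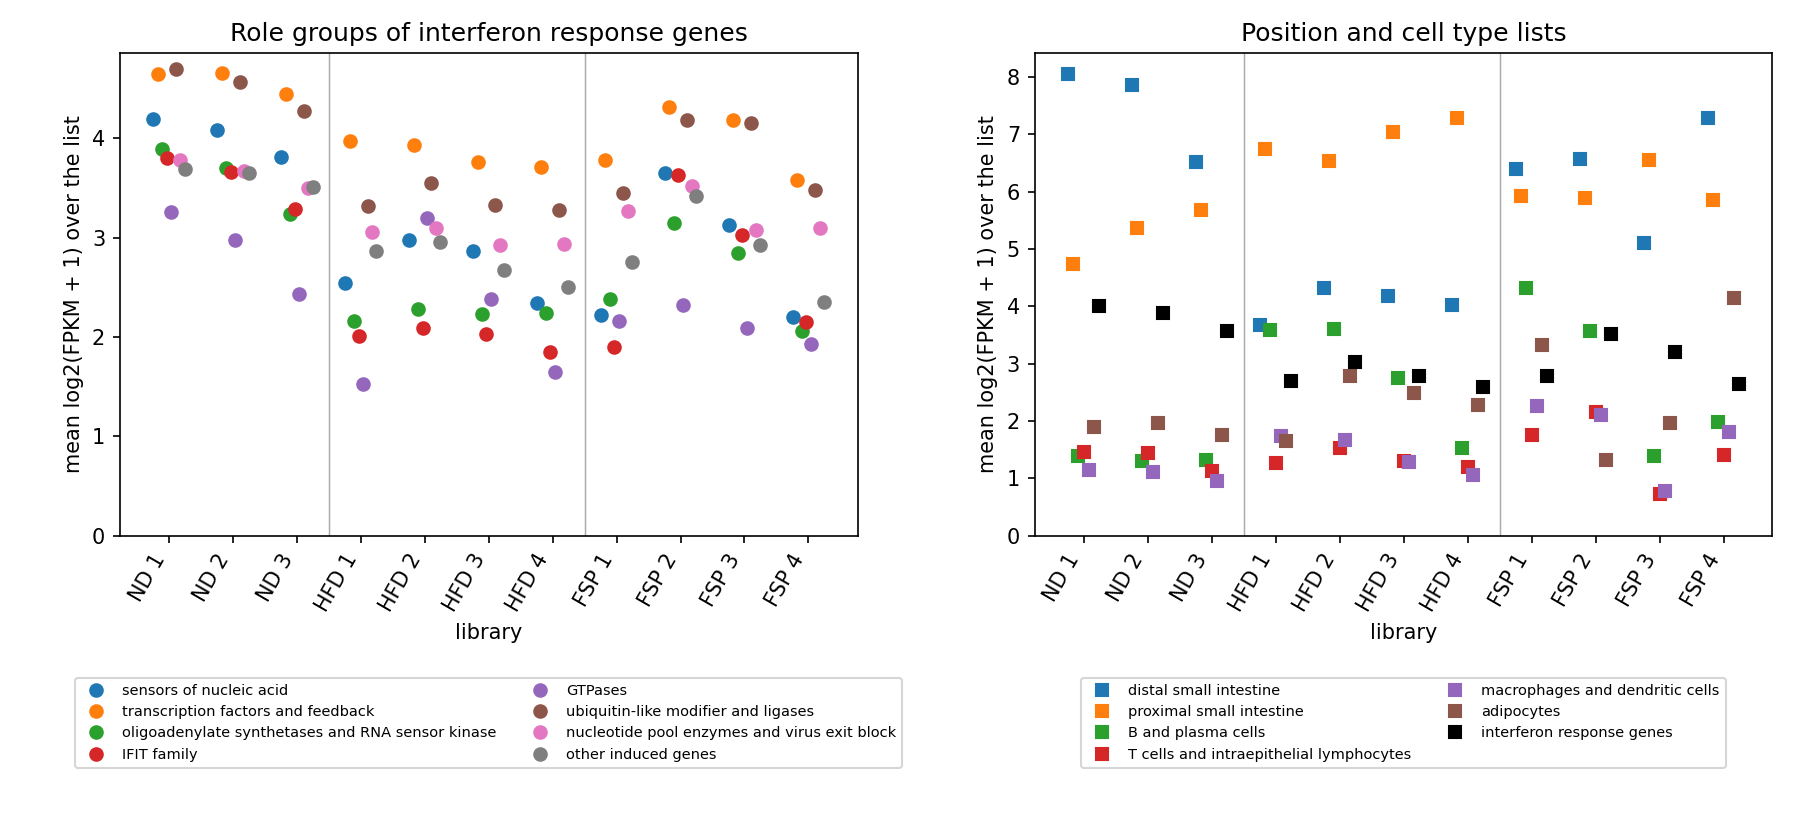
Mean log2(FPKM + 1) over each list (vertical axis, from 0) in the 11 libraries (horizontal axis). The left panel shows the 8 role groups of interferon response genes and the right panel position and immune cell lists, adipocytes and the interferon response genes as a whole (black). The black points lie at 3.57 to 4.01 in ND, at 2.59 to 3.03 in HFD and at 2.64 to 3.52 in FSP.

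The comparison of FSP with HFD addresses the mice given the herbal powder. Cmpk2 was higher in FSP and Samhd1 was lower, and 34 of 36 members did not pass limma. Over all tested genes 2.83% were higher and 0.913% lower. Cmpk2 stood at 22.4, 29.3, 18.7 and 22.4 FPKM in FSP 1 to 4, all above the highest HFD library, 15.1 FPKM (log2 change 0.69, SE 0.14, limma adjusted p = 0.0252). Samhd1 stood at 18.2, 16.2, 17.9 and 13.3 FPKM in FSP, all below the lowest HFD library, 21.9 FPKM (log2 change −0.49, SE 0.11, limma adjusted p = 0.0407). Both comparisons that use HFD share its libraries: in HFD against ND the log2 changes of Cmpk2 and Samhd1 were −0.98 and 0.56. The single-library tables of ND and HFD listed 24294 genes and those of FSP 24250, and whether FSP was tabulated apart cannot be told apart from the group.

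Neither call was firm. That of Cmpk2 ended under 5 of 7 processing alternatives and without each of 6 single libraries (ND 2, HFD 1, HFD 3, HFD 4, FSP 1 and FSP 4), with adjusted p from 0.0144 to 0.17. That of Samhd1 ended under 4 of 7 and without every library except FSP 3, with adjusted p from 0.017 to 0.119. With median-ratio scaling 0 members passed in either direction, where 1.38% of all genes were higher and 1.0% lower. At an unadjusted p under 0.05, 7 members were higher and 1 lower, against 14.8% and 3.92% of all tested genes.

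The members' median log2 change was 0.30, against 0.12 over all tested genes, and 0.14 against 0.19 without FSP 2. Every FSP library lay above every HFD library for 4 members, Cmpk2, Parp14, Eif2ak2 and Ifit3, against 8.52% of all tested genes. Parp14 stood at 8.23, 9.70, 15.4 and 8.91 FPKM in FSP, above the 4.76 to 7.56 of HFD, but its log2 change of 0.67 (SE 0.19) did not pass (limma adjusted p = 0.0775). Every FSP library lay below every HFD library for Samhd1 alone, against 2.3% of all tested genes.

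The FSP libraries were uneven for several members. Ifit1bl1 stood at 4.45, 39.5, 32.4 and 9.28 FPKM in FSP 1 to 4, beside 5.20 to 5.76 in HFD. FSP 2 lay within the ND range of 32.6 to 45.6 and FSP 3 just under it, FSP 1 was below every HFD library, and the log2 change of 1.35 (SE 0.51) did not pass (limma adjusted p = 0.178). Isg15 stood at 19.6, 126, 45.0 and 15.0 FPKM, an 8.37-fold range in which FSP 2 was above every ND library and FSP 4 below every HFD library. Zbp1 stood at 2.37, 18.2, 7.05 and 1.68 FPKM, and Usp18 at 1.77, 6.53, 3.67 and 0.901. In each, FSP 2 was highest and FSP 3 next.

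FSP 2 was the highest FSP library for 24 of the 36 tested members and FSP 4 the lowest for 22. Of the 26 members with HFD wholly below ND, FSP 2 reached the lowest ND library for 12 and FSP 3 for 4, whereas FSP 1 did for 0 and FSP 4 for 1. At or below the highest HFD library were 18 in FSP 1, 17 in FSP 4, 4 in FSP 3 and 0 in FSP 2. Such counts were not made over all tested genes, whose median-ratio factors were 1.126, 0.8365, 1.024 and 1.149 in FSP 1 to 4. The mean log2(FPKM + 1) over the members was 2.78, 3.52, 3.2 and 2.64 in FSP 1 to 4. For the distal list it was 6.39, 6.56, 5.10 and 7.28, so FSP 4 was highest for distal genes and lowest for interferon response genes, and FSP 3 lowest for distal genes. For the T cell list it was 1.75, 2.16, 0.72 and 1.40, highest in FSP 2 and lowest in FSP 3, and Gzma stood at 37.2 FPKM in FSP 2 and at 6.19 to 12.7 in the other FSP libraries. Adipocyte genes averaged 3.33, 1.32, 1.96 and 4.14, the reverse of the order of the interferon response genes, and smooth muscle and fibroblast genes 5.14, 3.07, 3.84 and 4.84, lowest in FSP 2 and next in FSP 3. In HFD 1 to 4 these 2 lists averaged 1.65, 2.79, 2.49 and 2.28, and 3.29, 4.96, 4.36 and 3.91. The interferon response genes averaged 2.7, 3.03, 2.79 and 2.59 there, highest in HFD 2 as both lists were, so the reverse order was not seen in HFD. Within FSP, the lists of B and plasma cells, of macrophages and dendritic cells, and of plasmacytoid dendritic cells were highest in FSP 1 and lowest in FSP 3. The part of all these lists in the spread was not tested. By role, the IFIT mean log2(FPKM + 1) was 1.90, 3.63, 3.03 and 2.15 in FSP 1 to 4, beside 1.85 to 2.09 in HFD and 3.29 to 3.80 in ND. The GTPase mean was 2.16, 2.32, 2.09 and 1.93, a narrower spread than the 1.53 to 3.2 of HFD.

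Elsewhere in the pathway, 1 of 6 receptor chains was lower, and 1 of 10 signalling genes, 1 of 13 sensing genes and 1 of 45 other effectors were higher (over all tested genes 0.913% were lower and 2.83% higher), with 0 of 13 antigen presentation genes past limma in either direction (4 at an unadjusted p under 0.05). Ifnar2 was lower in FSP than in HFD by a log2 change of −0.59 (limma adjusted p = 0.0414), at 2.95, 3.198, 2.71 and 2.03 FPKM. Stat3 (0.61), Ikbke (0.72) and Ogfr (0.60) were higher (limma adjusted p = 0.0372, 0.0259 and 0.0226). Each of these 4 calls ended without FSP 4, without HFD 1 and without HFD 3.

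**Figure D4:**
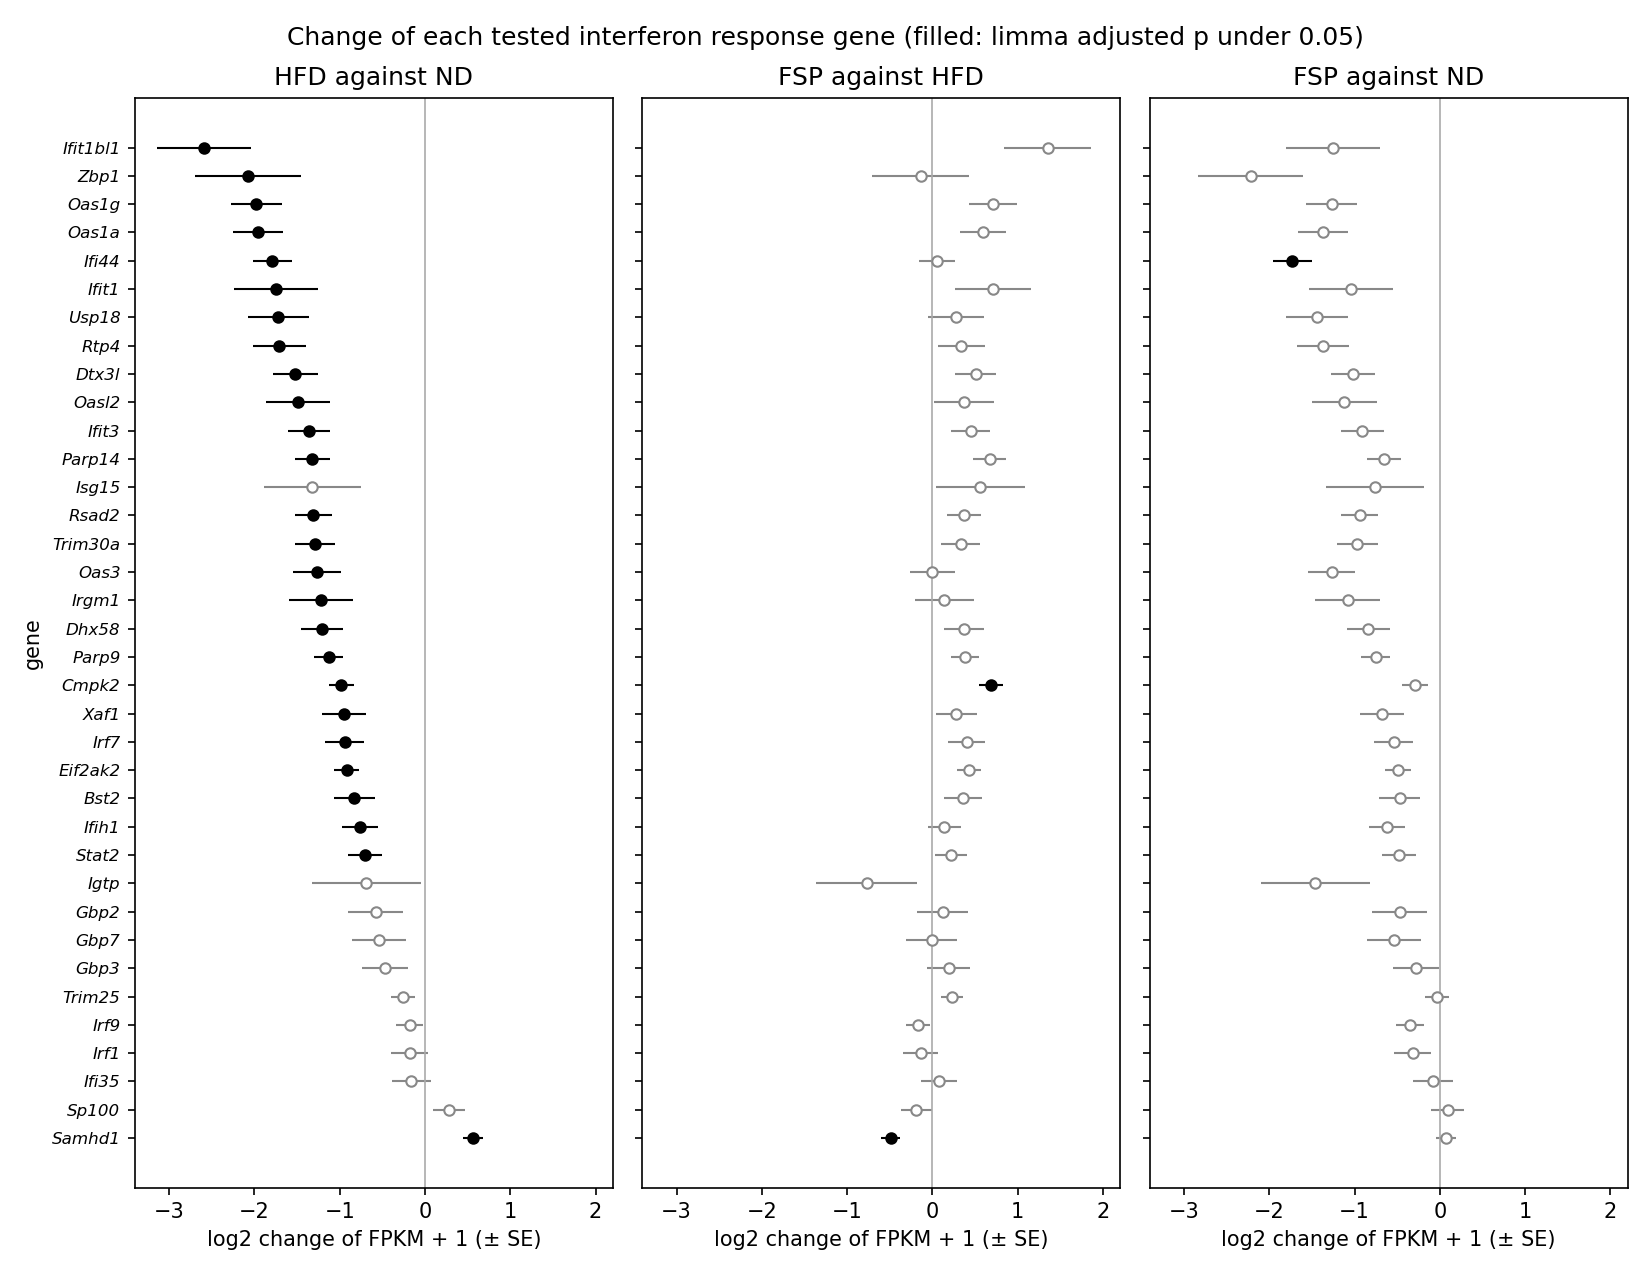
Log2 change of FPKM + 1 (horizontal axis) with its standard error for the 36 tested interferon response genes (rows, ordered by HFD against ND) in the 3 comparisons. Filled points passed limma's adjusted threshold of 0.05. They number 26, 2 and 1 in the panels from left to right, and 34 of 36 points lie left of 0 in the right panel.

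The comparison of FSP with ND addresses the distance from the normal diet. Ifi44, which passed the filter only through ND, was lower in FSP, at 0.493, 1.07, 0.734 and 0.262 FPKM against 3.02 to 5.78 in ND. Its log2 change was −1.73 (SE 0.23, limma adjusted p = 0.00572). No other member passed, beside 0.33% of all tested genes lower and 0.699% higher, and 0 members were higher (0 at an unadjusted p under 0.05). The call ended without ND 2 alone, at an adjusted p of 0.0542.

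At an unadjusted p under 0.05, 24 of 36 members were lower, against 8.55% of all tested genes, and the median was −0.75, against −0.07. Every FSP library lay below every ND library for 14 members, against 10.9% of all tested genes, and above for 0, against 5.57%. Oas1a stood at 7.16, 16.6, 9.65 and 5.32 FPKM in FSP, under the 18.4 of the lowest ND library (log2 change −1.37, SE 0.29, limma adjusted p = 0.0512). Oas3 stood at 2.28, 4.89, 4.34 and 1.79 FPKM, under the 6.005 of ND 3 (log2 change −1.27, SE 0.28, limma adjusted p = 0.0571). In FSP against HFD the log2 change of Oas3 was 0.00. Without FSP 2 the count of lower members was 10, beside 0.466% of all tested genes lower. With rescaling that leaves out mitochondrially encoded genes it was 5, beside 0.71%. Without ND 2 it was 0, where only 0.0194% of all tested genes were lower. The count was 4 without HFD 1 (0.903% of all tested genes lower), and 3 without FSP 3 (0.321%) or without ND 3 (0.35%).

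Group means placed FSP between HFD and ND for 33 of the 38 members in the table. ND had the highest mean for 36 of the 38 and HFD the lowest for 31, and FSP had the lowest mean for Irf1, Irf9, Gbp7, Irgm1 and Igtp. These orders of means were not counted over all tested genes, whose medians had the same signs as those of the members. From ND to HFD the median log2 change was −0.21 over all tested genes and −1.17 over the tested members. From HFD to FSP the medians were 0.12 and 0.30, and from ND to FSP −0.07 and −0.75. For Igtp the 4 FSP libraries, at 4.34, 9.63, 8.62 and 2.79 FPKM, were all below every ND library. Among the other effectors, Lgals9 was lower in FSP than in ND (log2 change −1.08, SE 0.16, limma adjusted p = 0.0134), at 99.2, 116, 158 and 144 FPKM against 256 to 280.2 in ND, a call that ended without ND 1 or ND 2.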

How the data were processed

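Libraries were made with a VAHTS kit from TRIzol-extracted RNA, per the labels. Named in the submitters' processing notes are the tools fastp, HISAT2 and HTSeq, R 3.2.0 and the mouse build mm10. Which annotation, strand setting and FPKM tool were used is not given in the sources used here. Expression was deposited by the authors as FPKM, and the values of the single-library tables were identical to those of the table of all libraries. Fragment totals were estimated from 658 single-exon genes with RefSeq lengths, where 75.0% to 79.8% of low values lay within 0.05 of a whole fragment. Whole counts were not rebuilt for other genes, so no count model was used.

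Log2(FPKM + 1) was fitted with limma 3.58.1 in R 4.3.3, with the 3 groups fitted jointly (trended prior variance, no other term) over genes with a mean of at least 1 FPKM. Two-sided p-values received Benjamini-Hochberg adjustment over the genes of each comparison, and 0.05 was the threshold. The exact permutation test compared mean log2(FPKM + 1) between 2 groups, and the smallest p it can give is 0.0286. Alternatives were 7 processing settings and leaving out each of the 11 libraries.

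Groups and replicate numbers came from the sample titles. The members, gene lists and tests were chosen with earlier results of these data known. Values per library were given for the 3 members with the smallest p in each comparison, members past the threshold in FSP, the smallest p in each role group for HFD against ND, and members past the threshold against the list's direction. Up to 4 genes with the smallest p were named from each pathway list, with the receptors always. Some items are not reported here. Zbp1, Irf1, Irf7, Ifit1bl1, Igtp, Isg15, Eif2ak2 and the marker genes shown singly were chosen after their values were seen, as was the choice of promoter stretches.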

Additional observations from a re-analysis of the deposited data

Results flagged for a closer look

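Among 76 groups of 4 libraries examined, 1 held a library far from the others: Ifit3 in HFD 4, at 1.66 FPKM, beside 2.05 to 2.11 FPKM in the other HFD libraries. Its gap to the nearest made up 0.88 of the range of the group, past Dixon's critical value for 4 libraries. Chance alone gives about 1 such group in 20. The lower level of Ifit3 in HFD than in ND held without HFD 4.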

How the results depend on the processing

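Over 3132 values of single genes under an alternative, 2913 kept their side of the threshold, 180 fell short of it and 39 newly passed. No value past the threshold changed sign, whereas 59 of the 2913, not past in either fit, did. Leaving out 1 library gave 15 to 26 lower members and 0 to 1 higher in HFD against ND, 0 to 1 lower and 0 to 1 higher in FSP against HFD, and 0 to 10 lower in FSP against ND. Over all genes it gave 849 to 2678 calls in HFD against ND, 48 to 458 in FSP against HFD and 13 to 201 in FSP against ND, from 2109, 385 and 106. With median-ratio scaling 16 members were lower in HFD against ND, and 0 were lower and 0 higher in FSP against HFD, where 245 genes passed in all. With quantile normalization 0 members were higher in FSP against HFD, and 192 genes passed in FSP against ND. Rescaled without mitochondrially encoded genes, 0 members were higher in FSP against HFD (1.59% of all genes) and 5 lower in FSP against ND (0.71%). With no filter on low values 0 were lower and 0 higher in FSP against HFD, where 117 genes passed, and 58 passed in FSP against ND. With only the 2 groups compared 0 members were lower and 0 higher in FSP against HFD, where 76 genes passed. The cause of these shifts was not tested. Same-numbered libraries of different groups correlated in their deviations with r from −0.10 to 0.45, over 0.1 in 5 of 10 pairs. Differently numbered libraries had r from −0.62 to 0.65. With 3 or 4 libraries per group, these values cannot settle whether the numbers pair the samples. With a replicate block 25 members were lower and 1 higher in HFD against ND, and 0 lower in FSP against HFD.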
